A study of Arabidopsis thaliana with 30 samples.

Results

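The comparison of hsfa1abd-2 with the wild type at 0.5 h after cutting rests on 6 of the 30 libraries of the study, 3 of each genotype, taken by the genotype and time in their labels. The wild type is Col-0 and the mutant is hsfa1abd-2, labelled with the same ecotype. Seedlings of both were kept in darkness on 1x MS medium and used when 7 days old. Their hypocotyls were cut with a scalpel, and explants were taken 30 min later, about 50 for each biological replicate. The other 24 libraries are the same genotypes at 0, 1, 3 and 24 h, and the 0 h explants carry the wounding label too. Every group is therefore a pool of cut, etiolated hypocotyls, with no uncut seedlings among those analysed here. The labels give no allele for any of the mutated genes beyond the name of the line.

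Class A1 heat shock factors are the activators that start the heat response of Arabidopsis. In unstressed cells they are held inactive by HSP70 and HSP90 chaperones. When proteins misfold they are released, form trimers, bind heat shock elements in promoters and switch on chaperone genes and further regulators such as HSFA2, DREB2A and MBF1C. HSFA1A, HSFA1B and HSFA1D give the mutant its name. HSFA1E, the remaining member of the class, is not in it. The comparison asks how transcript levels differ between the genotypes early after wounding.

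The count table gives no gene identifier for its rows, so a row is called a feature, and none was given a gene name. The HSFA1 transcripts themselves, chaperones, wound regulators and tissue markers of the hypocotyl could therefore not be looked up, and neither the mutation nor the tissue label was checked through its own genes. Row numbers, which start at 1 below the header, are given for 4 features, and the others are described by group or rank. Levels are TMM-scaled CPM, the count of a feature relative to its library's total in units of 1e+06. They are not divided by transcript length, so they are compared between libraries and not between features.

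The libraries at 0.5 h include a shallow one, and the lowest correlations between replicates were found among them. Wild-type replicate 1 held 578179 counts, 16.1% of the median library, while the other 29 held 3164714 to 4296509. A count of 3 in it equals 5.18 CPM, against 0.823 to 0.917 CPM in the other libraries at 0.5 h. Replicates correlated at r = 0.923 to 0.964 within the wild type and at 0.949 to 0.974 in the mutant (log2 CPM, across features) and, outside 0.5 h, at 0.957 to 0.964 in the mutant at 3 h and at 0.971 to 0.982 in the remaining groups. Across genotypes at 0.5 h, the r of mutant replicate 2 with wild-type replicate 2 was 0.961, close to its r of 0.963 and 0.949 with the mutant replicates. That of wild-type replicate 3 with mutant replicate 1 was 0.964, the same as with wild-type replicate 2. Over all features, profiles at 0.5 h did not fall into 2 groups by genotype.

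At 0.5 h, hsfa1abd-2 differed from the wild type in 680 of 18526 tested features, 3.67% (edgeR's quasi-likelihood test, Benjamini-Hochberg adjusted p under 0.05). Of these, 285 were higher in the mutant (1.54% of those tested) and 395 lower (2.13%). At least 2-fold differences numbered 130 higher (0.702%) and 122 lower (0.659%). The median difference was 0.94 on the log2 scale among the higher features and -0.76 among the lower ones, against 0.006 over all tested features. The 6 libraries did not overlap between genotypes in 266 of the 285 higher features, where 7.95% of all tested features had every mutant library above every wild-type one, and in 351 of the 395 lower features, where 7.71% had the reverse. The same libraries made the calls, so this separation is largely set by the choice and is no added evidence. With 3 libraries a side, and no statement beyond biological replicate in the labels, the p-values measure spread among pools of explants. That spread is estimated over the 10 groups of all 30 libraries, not from the 6 at 0.5 h alone. The lowest replicate correlations were found among these 6, and fitted alone they gave 161 calls in edgeR's test.

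Lower and higher features differed in how they were spread over levels and sizes. At least 8-fold differences numbered 51 higher and 23 lower, and at least 16-fold differences 21 and 20. The balance depended on the libraries: at least 2-fold calls were 35 higher and 71 lower without wild-type replicate 2, and 32 and 71 with the libraries at 0.5 h thinned to the depth of the shallowest. The lower list held the smallest p-values. In edgeR's test 36 of its features had an adjusted p under 1e-06, while the smallest adjusted p of the higher list was 1.23e-05. Features with a mean over all 10 groups under 10 CPM made up 76 of the 130 that were at least 2-fold higher and 39 of the 122 that were at least 2-fold lower. Of the 18526 tested features, 861 were under 2 CPM, 2378 at 2 to 5 CPM and 2728 at 5 to 10 CPM. The share among the 122 was thus close to that of all tested features, and the share among the 130 above it. At or above 100 CPM there were 121 lower and 42 higher features of 1939 tested, with 16 and 3 past 2-fold. The 122 features that were at least 2-fold lower summed to 12835, 12464 and 12203 CPM in the wild-type libraries and to 4195, 4449 and 3466 CPM in the mutant libraries. The 130 that were at least 2-fold higher summed to 1247, 865 and 1023 CPM in wild-type libraries and to 3216, 4290 and 3861 CPM in the mutant. These sums describe features chosen for their difference in the same libraries. In whole explants, fewer cells of a type and less RNA per cell cannot be told apart.

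**Figure D1:**
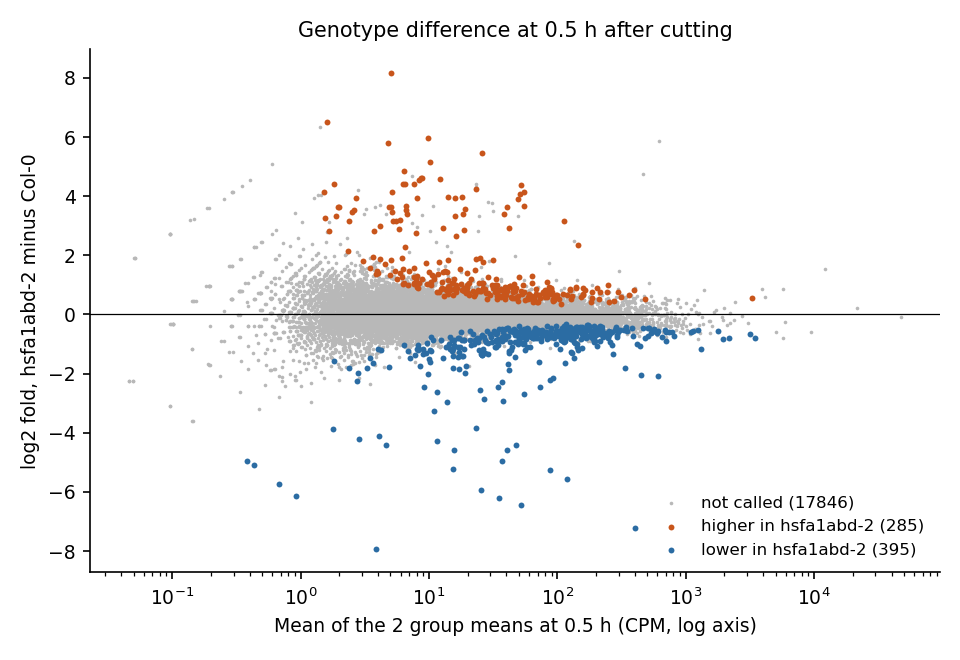
Log2 fold of hsfa1abd-2 against Col-0 at 0.5 h (vertical axis) against the mean of both group means in CPM (horizontal log axis), 1 point per tested feature with a count at 0.5 h. The 395 lower features (blue) reach down to -7.92 and extend to high levels, while most of the large positive folds among the 285 higher features (orange) sit at low levels.

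The leading lower features were transcripts that the wild type held at means of 5.42 to 801 CPM and the mutant at 0 to 8.50 CPM. They are the 20 with the largest negative folds among calls that reached 5 CPM in either group, with no overlap between the genotypes' libraries. Their folds ranged from -2.93 to -7.92 on the log2 scale, and some calls outside this filter had larger folds than the last of them. Their medians at 0.5 h were 46.6 CPM for wild type and 1.46 CPM for mutant, and at 0 h 6.83 and 1.07 CPM. Feature 4711 had the smallest p of the lower list. It stood at 131, 76.0 and 101 CPM in the wild-type libraries and at 1.21, 1.22 and 0.823 CPM in the mutant libraries, from 688 counts in all against 11. Every wild-type library was far above every mutant one, the shallow library included. Its log2 fold was -6.46, with an approximate SE of 0.28 and an adjusted p of 5.1e-17 in edgeR's test. It was also lower in the mutant at 0, 1, 3 and 24 h.

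Feature 9590 had the largest negative fold and was not counted in the mutant at 0.5 h. The wild-type libraries held 3, 22 and 40 counts of it, or 5.18, 6.08 and 11.97 CPM, and the 3 mutant libraries 0. Set against a floor of 3 counts over the mutant group, which is 0.294 CPM, the wild-type mean of 7.74 CPM makes it at least 26.3-fold lower (edgeR, adjusted p = 0.000373). With counts pooled over the wild-type group (8.62 CPM) the bound is 29.3-fold. With the libraries at 0.5 h thinned to the depth of the shallowest its adjusted p was 0.116, and over its 16 alternatives it ran from 9.22e-07 to 0.116. The mutant also had no count of it at 0, 3 and 24 h, while the wild type went from 0.585 ± 0.527 CPM at 0 h to 15.02 ± 2.83 CPM at 1 h and 83.7 ± 18.2 CPM at 3 h (SD, n = 3 each). A further lower feature, second by fold among the leading 20, was the most abundant of them in the wild type. It measured 818, 731 and 854 CPM in the wild-type libraries and 6.07, 5.195 and 4.67 CPM in the mutant libraries. The wild type had reached this level from a mean of 81.2 CPM at 0 h, and the mutant mean was 5.02 CPM at 0 h and 5.31 CPM at 0.5 h.

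The leading higher features had wild-type means of 0 to 7.51 CPM and mutant means of 9.40 to 103 CPM. They are the 20 with the largest positive folds under the same filter of 5 CPM and no overlap. Their folds ranged from 3.96 to 8.16 on the log2 scale, with medians of 0.575 CPM for wild type and 18.1 CPM for mutant. Feature 1891 led them, with 0 counts in all wild-type libraries and 14, 44 and 46 counts in the mutant libraries, or 4.25, 13.4 and 12.6 CPM. Against a floor of 3 counts over the wild-type group, 0.398 CPM, the mutant mean of 10.1 CPM makes it at least 25.4-fold higher (edgeR, adjusted p = 0.0115). This call was lost without wild-type replicate 2 (adjusted p = 0.135), without mutant replicate 3 (0.0509), in limma-voom (0.118), in the 5 deeper libraries at 0.5 h fitted alone (0.0662), and with all libraries at 0.5 h thinned to the depth of the shallowest (0.362). Over its 16 alternatives the adjusted p ran from 1.01e-05 to 0.362. The fitted log2 fold, 8.16 with all libraries, was 7.60 to 8.16 where the call was lost in edgeR and 4.26 in limma-voom, which with 0 counts in a group depends on the tool's prior.

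Feature 10904 had the smallest p of the higher list and differed from 0 to 1 h. It stood at 1.73, 7.18 and 4.79 CPM in the wild-type libraries and at 18.5, 24.4 and 15.1 CPM in the mutant libraries. All mutant libraries lay above all wild-type ones, and the lowest value, in the shallow library, was a single count. Its log2 fold was 1.77, with an approximate SE of 0.24 and an adjusted p of 1.23e-05 in edgeR's test. In the 5 deeper libraries at 0.5 h fitted alone the adjusted p was 0.088, and over its 16 alternatives it ran from 8.95e-08 to 0.088. At 0 h the means were 1.58 ± 0.737 and 5.02 ± 0.804 CPM, and at 1 h 22.9 ± 2.32 and 44.7 ± 6.27 CPM, in wild type and mutant (SD, n = 3 each). The log2 fold was 1.65 at 0 h (edgeR adjusted p = 0.00886) and 0.97 at 1 h (edgeR adjusted p = 0.000391). At 3 h they were 85.9 ± 8.65 and 95.3 ± 10.3 CPM (log2 difference 0.15, edgeR adjusted p = 0.69), and at 24 h the wild type was higher, with 131 ± 10.2 against 97.2 ± 7.22 CPM (SD, n = 3 each, edgeR adjusted p = 0.0201).

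**Figure D2:**
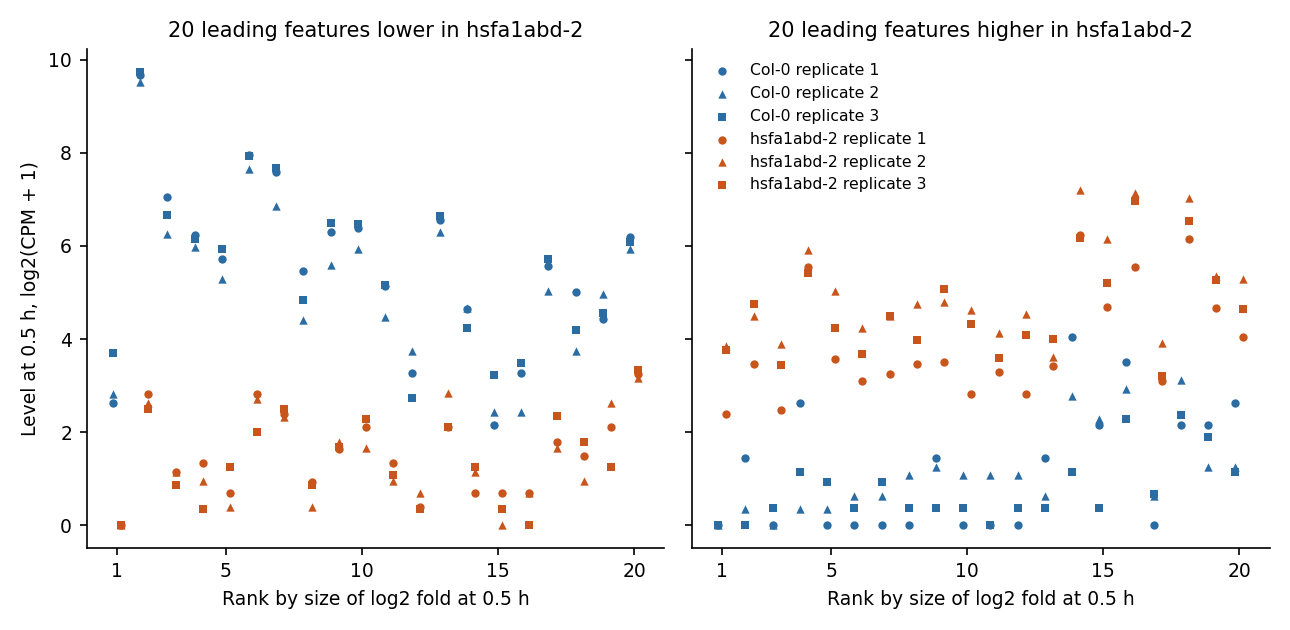
Level of the 20 leading lower (left) and 20 leading higher (right) features in each library at 0.5 h, as log2(CPM + 1), ordered by the size of the fold. Blue marks are Col-0 and orange marks hsfa1abd-2, with 1 symbol per replicate. In the right panel the mutant replicates spread more, and replicate 1 (circles) is the lowest of the 3 in 18 of the 20 features.

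Replicates behaved differently in the leading lists. Among the 20 leading higher features, mutant replicate 1 was the lowest mutant library in 18 and replicate 2 the highest in 16, while over all tested features replicate 1 was lowest in 4869 of 18526 and replicate 2 highest in 7510. Among the 20 leading lower features, mutant replicates 1, 2 and 3 were lowest in 3, 9 and 8, and wild-type replicate 2 was the lowest wild-type library in 15. Over all 395 lower features, replicate 3 was lowest in 290 within the mutant and in 252 within the wild type, while over all tested features it was lowest in 6890 and 5894. The summed level of the 20 leading higher features also moved between wild-type libraries. It was 51.8, 35.6 and 19.2 CPM in the wild type at 0.5 h, and 405, 884 and 642 CPM in the mutant.

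A group of features stands out in single wild-type libraries and varies widely in the mutant. In wild-type 0 h replicate 2, 12 features stood at 5 CPM or more and at least 8-fold above both other replicates, with 0.5 CPM added to each, a rule chosen after seeing the data. In the other libraries this count was 0 to 4. The 12 features summed to 1285 CPM in that library and to 5.91 and 4.396 CPM in the other replicates. In the wild type at 0.5 h they summed to 171, 147 and 25.4 CPM, and in the mutant to 1102, 2759 and 4031 CPM. All 12 had a positive fold at 0.5 h, with a median of 3.64 on the log2 scale, but 3 were called. The 20 leading higher features, of which 1 is among the 12, were also raised in wild-type 0 h replicate 2, with 110 CPM against 14.4 and 6.11 CPM in the other replicates. In wild-type 3 h replicate 3 the 12 features summed to 446 CPM, against 5.60 and 5.03 CPM in the other replicates, and the 20 leading higher features to 38.3 CPM, against 9.43 and 9.30 CPM. In the mutant at 0.5 h they did not peak together. The 12 were highest in replicate 3, and the 20 leading higher features in replicate 2 (405, 884 and 642 CPM). The part of whatever these features mark in the higher list was not tested. Leaving the 12 out keeps 282 higher features, 127 of them at least 2-fold, and no lower feature is among the 12.

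The number of calls depended strongly on single libraries, as the plot of calls by libraries used shows. It was 459 without the shallow wild-type replicate 1 (201 higher and 258 lower), 157 without wild-type replicate 2 and 1212 without wild-type replicate 3. Without mutant replicates 1, 2 and 3 it was 362, 1984 and 227. Higher features were 33.4% to 50.6% of the calls in these fits, against 41.9% with all libraries. The 6 libraries at 0.5 h fitted alone gave 161 calls, 88 higher and 73 lower. Thinned to the depth of the shallowest, the libraries at 0.5 h gave 176 calls, of which 27.3% were higher, and limma-voom with sample weights gave 868 calls, of which 29% were higher.

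**Figure D3:**
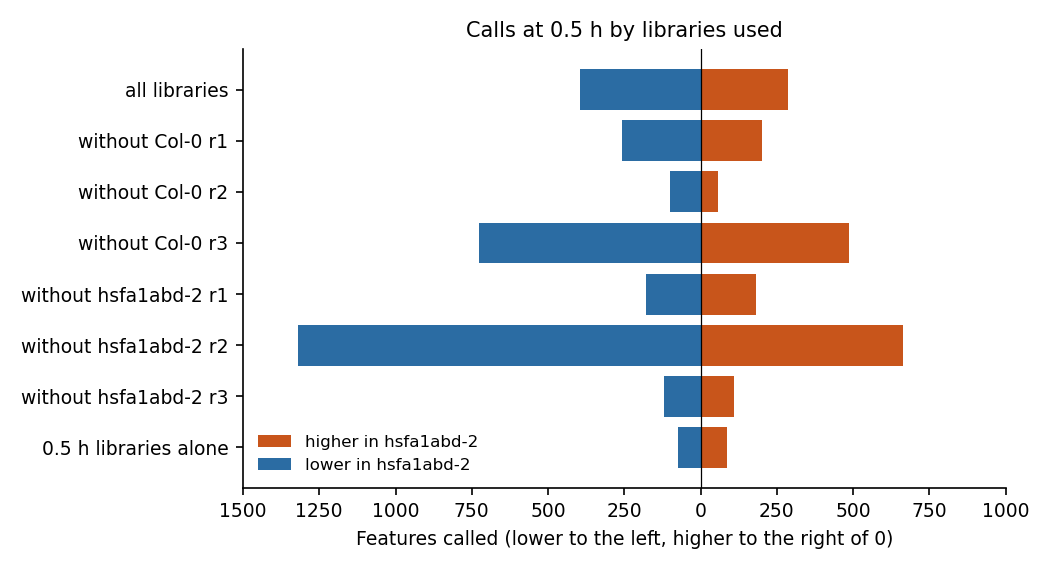
Features called at 0.5 h by edgeR's quasi-likelihood test, lower in hsfa1abd-2 to the left (blue) and higher to the right (orange), with all 30 libraries, without each library at 0.5 h (r1 to r3), and with the 6 libraries alone. Counts run from 157 without Col-0 replicate 2 to 1984 without hsfa1abd-2 replicate 2.

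Of the 680 features, 135 (19.9%) kept their call and direction in each of the 6 fits that leave out a library at 0.5 h. They were 44 of the 285 higher features (15.4%) and 91 of the 395 lower ones (23.0%). DESeq2 called 44 and 91 of these, limma-voom 42 and 91, and the 6 libraries alone 29 and 63. All 20 leading lower features were among the 91, and 6 of the 20 leading higher ones among the 44. The 44 had a median fold of 1.40 and the 91 of -1.45 on the log2 scale, with 27 and 64 at least 2-fold and 19 and 33 at least 4-fold.

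Each library was also scored on features that it did not help to choose, and 2 of the 6 lay nearest to a library of the other genotype. The score of a library is the mean log2 CPM of features called higher without it minus that of features called lower. The libraries set beside it did help to choose those features, so their own separation is no evidence. Only mutant replicate 3 scored within the range of the other libraries of its genotype. The shallow wild-type replicate 1 was nearer to its own genotype, at -2.36 against -2.85 and -2.57 in the other wild-type libraries and -0.01 to 0.40 in the mutant. Wild-type replicate 2 scored -2.40 and mutant replicates 1 and 3 scored -0.28 and 0.75, each also far nearer to its own. Mutant replicate 2 scored -1.13, below the mutant libraries (-0.31 and 0.12) and nearest to a wild-type one (-2.40 to -1.64). Wild-type replicate 3 scored -1.45, above the wild-type libraries (-2.50 and -2.34) and nearest to a mutant one (-0.70 to 0.24). Without either of these libraries the number of calls was larger than with all 6.

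**Figure D4:**
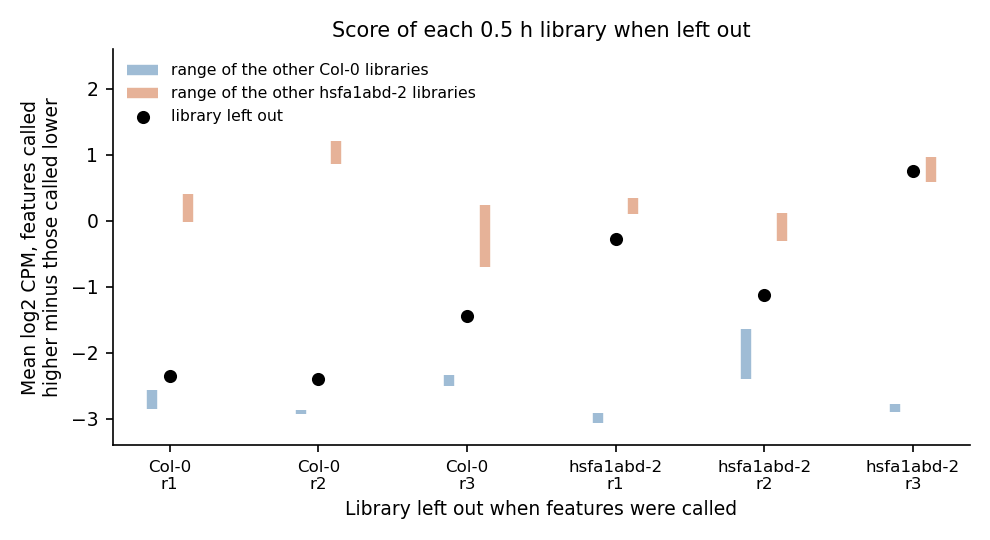
Score of each library at 0.5 h (black point) when features were called without it, as the mean log2 CPM of features called higher in hsfa1abd-2 minus those called lower. Bars span the same score in the other Col-0 (blue) and hsfa1abd-2 (orange) libraries, which helped to choose the features. Col-0 replicate 3 at -1.45 and hsfa1abd-2 replicate 2 at -1.13 lie nearer to the bar of the other genotype.

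The genotype difference at 0.5 h had counterparts at the other times, which use other libraries. Of the 395 lower features, 99 were also lower at 0 h (25.1%, against 1.45% of all tested features), 217 at 1 h (54.9%, against 2.97%), 98 at 3 h (24.8%, against 0.955%) and 190 at 24 h (48.1%, against 10.3%). They are 36.9%, 39.5%, 55.4% and 9.99% of the lists of lower features at those times. Of the 285 higher features, 35 were higher at 0 h (12.3%, against 0.421%), 151 at 1 h (53.0%, against 3.06%), 64 at 3 h (22.5%, against 1.04%) and 127 at 24 h (44.6%, against 10.6%). They are 44.9%, 26.6%, 33.2% and 6.47% of the lists of higher features at those times. Opposite calls were 0 at 0 and 1 h for both lists, 2 lower features at 3 h, and 7 lower and 9 higher features at 24 h. The 5 contrasts share 1 model and thus 1 estimate of spread per feature.

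Sizes at other times were smaller than at 0.5 h, where the features were chosen. The median fold of the 395 lower features was -0.43, -0.58, -0.30 and -0.48 on the log2 scale at 0, 1, 3 and 24 h, against -0.76 at 0.5 h. That of the 285 higher features was 0.39, 0.70, 0.43 and 0.72, against 0.94. The medians over all tested features at those times were -0.06 to 0.01. In the other direction, the 268 features called lower at 0 h had a median fold of -0.40 at 0.5 h and -0.62 at 0 h, and 95.5% of them were negative at 0.5 h. Their mean level was 6.71, 6.65 and 6.47 log2 CPM in the wild-type libraries at 0.5 h and 5.91, 6.07 and 5.78 log2 CPM in the mutant ones. The genotypes did not overlap on this list, which was called between libraries at 0 h, with the filter and spread of the common model. The 78 features called higher at 0 h gave 3.34, 3.42 and 3.43 log2 CPM in wild-type libraries and 4.56, 4.70 and 4.64 log2 CPM in the mutant, again with no overlap. Of the features called higher and lower at 1 h, 93.1% and 96.4% kept their sign at 0.5 h, and of those called at 3 h 78.2% and 94.4%. Lists called at 24 h carried over less closely than those called at 0 h. The 1962 features higher at 24 h gave 3.99, 4.10 and 4.53 log2 CPM in wild-type libraries at 0.5 h and 4.76, 4.33 and 4.96 log2 CPM in the mutant, where the genotypes overlapped, and 87.2% had a positive fold. Of the 1901 features lower at 24 h, 74.5% had a negative fold at 0.5 h. They gave 5.14, 5.29 and 5.15 log2 CPM in wild-type libraries and 4.92, 5.102 and 4.78 log2 CPM in the mutant, with no overlap.

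Most features were called at several times. Of the 395 lower features, 93 (23.5%) were called lower at 0.5 h alone and 40 (10.1%) at all 5 times. Of the 285 higher ones, 75 (26.3%) were called higher at 0.5 h alone and 11 (3.86%) at all 5 times. Calls at 0.5 h alone do not show a difference particular to that time. Among the 93 and 75 features, 1 of each differed from the mean of the other times when tested directly. Tested against 24 h, 5 of the 93 and 20 of the 75 differed (1.73% of all tested features did). Against 3 h, 4 and 1 differed (0.178% of all), and against 0 h and 1 h none.

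**Figure D5:**
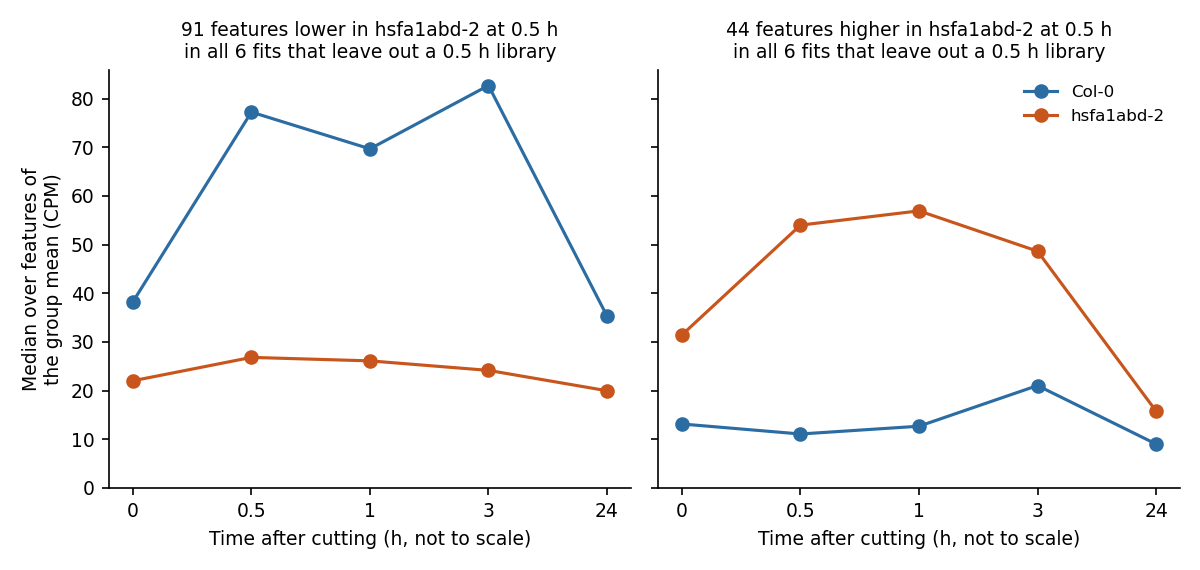
Median over features of the group mean in CPM at 0, 0.5, 1, 3 and 24 h (axis not to scale) for the 91 lower (left) and 44 higher (right) features called in all 6 fits that leave out a library at 0.5 h. In the left panel Col-0 goes from 38.2 to 77.2 CPM between 0 and 0.5 h, and hsfa1abd-2 from 22.0 to 26.8 CPM.

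The 91 lower features had their largest gap between genotypes from 0.5 to 3 h. Their median level was 38.2 CPM at 0 h in the wild type, 77.2 CPM at 0.5 h, 69.7 CPM at 1 h, 82.7 CPM at 3 h and 35.3 CPM at 24 h. In the mutant it was 22.0, 26.8, 26.1, 24.14 and 19.95 CPM. The values at 0.5 h come from the libraries that chose the features, and those at other times do not. Of the 91, 45 were also lower at 0 h, and 86, 75 and 70 were so at 1, 3 and 24 h, with 35 at all 5 times. The 44 higher features had medians, in the same order of times, of 13.1, 11.1, 12.7, 21.0 and 9.002 CPM for wild type and 31.4, 54.0, 56.9, 48.6 and 15.8 CPM for mutant.

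The leading features showed the same signs at every time. All 20 leading lower features had a negative fold at each of the 5 times, and 9, 20, 20 and 18 were called lower at 0, 1, 3 and 24 h. All 20 leading higher features had a positive fold at each time, and 3, 15, 16 and 10 were called higher. The median fold of the leading lower features was -4.59 at 0.5 h, where they were chosen, and -2.36, -3.75, -5.09 and -2.84 at 0, 1, 3 and 24 h. That of the leading higher ones was 4.49 at 0.5 h and 2.03, 4.26, 3.997 and 3.98 at the other times.

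Tested directly, few features were called for a genotype difference at 0.5 h that departed from that at other early times. Few calls do not show that the times are alike. The departure of feature 4711 from 0 h, -2.87 on the log2 scale, was not called (edgeR adjusted p = 0.0951). In edgeR's test the genotype difference at 0.5 h differed from that at 0 h in 15 features (0.081% of those tested). All 15 were lower in the mutant at 0.5 h and more negative there than at 0 h. From that at 3 h it differed in 33 (0.178%), with 24 more negative (0.13%) and 9 more positive (0.0486%) at 0.5 h. Against 1 h no feature was called, with a smallest adjusted p of 0.0609 and 898 features at an unadjusted p under 0.05 (4.85% of those tested). DESeq2 called 3 and limma-voom 0 in that contrast. Against 24 h, 320 features were called (1.73%), 168 with the more positive (0.907%) and 152 with the more negative difference at 0.5 h (0.82%). Of the 33 features at 3 h, 13 were among those lower at 0.5 h and 4 among those higher. These 4 tests share the libraries at 0.5 h. The 33 became 20, 11 and 64 without wild-type replicates 1, 2 and 3 at 0.5 h and 17, 120 and 12 without the mutant ones. They became 11 and 10 without wild-type replicates 1 and 2 at 3 h, 54, 19 and 19 without mutant replicates 1, 2 and 3 at 3 h, 19 and 17 without wild-type replicates 1 and 3 at 24 h, and 21 without mutant replicate 3 at 24 h. The 320 became 201 without wild-type replicate 2 at 0.5 h, 128 without wild-type replicate 2 at 24 h, 177 when mutant replicate 2 at 24 h was left out and 110 when replicate 3 was.

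Against the mean of the 4 other times, 8 features departed (0.0432%), 7 with a more negative (0.0378%) and 1 with a more positive difference at 0.5 h (0.0054%). The most negative was the second of the leading lower features, with a fold of -7.23 at 0.5 h and of -4.02, -5.29, -6.96 and -3.51 at 0, 1, 3 and 24 h (departure -2.28, edgeR adjusted p = 0.000436). Another was lower in the mutant at 0.5 h, with a fold of -0.85 (departure -1.71, edgeR adjusted p = 0.0262). Its folds of 1.35, 0.47, 0.65 and 0.94 at 0, 1, 3 and 24 h were positive and not called. The largest, at 0 h, rests on a wild-type mean below the level of 3 counts in those libraries. Wild-type means were 0.4996 CPM at 0 h, 30.04 CPM at 0.5 h and 11.04 CPM at 1 h, and mutant means 1.36, 15.5 and 15.2 CPM. The single feature with a more positive difference had means of 78.2 CPM (wild type) and 121 CPM (mutant) at 0.5 h, and of 637 and 557 CPM at 3 h (departure 0.77, edgeR adjusted p = 0.0186). The count of 8 was 3 without the shallow library, 4 without wild-type replicate 3, 15 without mutant replicate 2 and 2 without mutant replicate 3.

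Features that rise in cut explants included a raised share of those lower in the mutant at 0.5 h, less so with classes from the mutant. The classes contrast the wild type at 1 and 0 h, with no library at 0.5 h in the contrast, although the filter and each feature's spread come from the model of all 30 libraries. Wounding and time since harvest cannot be told apart in them. Of the 2302 features at least 2-fold higher at 1 h than at 0 h (12.4% of those tested), 133 were lower in the mutant at 0.5 h (5.78%, against 2.13% of all tested features) and 56 were higher (2.43%, against 1.54%). Their median fold between genotypes at 0.5 h was -0.17 on the log2 scale, against 0.006 over all tested features, and 66.2% were negative, against 49.2%. Of the 1331 features at least 2-fold lower at 1 h (7.18% of those tested), 39 were lower (2.93%) and 30 higher (2.25%) in the mutant, with a median of 0.03. Taken from the mutant's own libraries at 0 and 1 h, the 2228 features at least 2-fold higher at 1 h (12% of those tested) held 101 lower ones (4.53%) and 66 higher ones (2.96%), with a median of -0.12. Of the 973 features at least 2-fold lower at 1 h in the mutant (5.25% of those tested), 37 were lower (3.8%) and 14 higher (1.44%), with a median of -0.10, close to that of the mutant's rising class. Among at least 2-fold calls at 0.5 h, the wild-type rising class held 45 lower and 20 higher features, and the mutant's 19 lower and 30 higher. All tested features held 122 and 130. Which direction was more frequent among these larger calls thus depended on the genotype that gave the class. A rising class from 1 genotype favours features that are high in that genotype at 1 h.

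Most of the leading lower features also rose in wild-type explants between 0 and 1 h. Of the 20 leading lower features, 17 belonged to this wild-type class of rises between 0 and 1 h and 6 to the mutant's. They were chosen as high in the wild type and low in the mutant at 0.5 h, and features near 0 in the mutant can hardly be called as rising there, so the gap between these numbers is largely set by the choice. Of the 91 lower features kept in every fit without a library at 0.5 h, these numbers were 41 (45.1%) and 18 (19.8%), and of all 395 lower features 133 (33.7%) and 101 (25.6%). None of the 20 leading higher features and 9 of the 44 kept higher ones (20.5%) were in the wild-type class, against 12.4% of all tested features. In the mutant's class these numbers were 2 and 12 (27.3%), against 12%. Of all 285 higher features, 56 (19.6%) were in the wild-type class and 66 (23.2%) in the mutant's. The leading higher features were chosen as low in the wild type at 0.5 h, so their absence from the wild-type class is largely set by the choice. The contrasts between 0 and 1 h share no library with that at 0.5 h apart from the common model. The levels of the leading features near 0 counts make their folds imprecise.

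Averaged over all features that moved between 0 and 1 h, the genotypes overlapped at 0.5 h. The 2347 features that rose at least 2-fold between 0 and 1 h on the average of both genotypes had changed from their own 0 h mean by 1.52, 1.79 and 1.61 in the wild-type libraries at 0.5 h and by 1.47, 1.71 and 1.39 in the mutant libraries (mean log2 change). Replicate 2 was the highest of each genotype, and the ranges overlapped. The 1162 features that fell had changed by -1.02, -0.78 and -0.85 in wild-type libraries and by -0.74, -0.68 and -0.82 in the mutant, again with overlap. At 1 h the rises were 2.17 ± 0.0613 for wild type and 2.02 ± 0.0139 for mutant (SD, n = 3 each), a spread under that of 1.64 ± 0.137 and 1.52 ± 0.167 (SD, n = 3 each) at 0.5 h.

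For most features not called, intervals from limma-voom bound the difference. Of the 17846 features not called, 11267 (63.1%) had a 95% interval of the log2 fold that stayed within 2-fold in either direction, in limma-voom with sample weights. For the other 6579 a 2-fold difference was not excluded at this depth and spread. The median half-width of the interval was 0.516 on the log2 scale. These intervals use a spread estimated over all 30 libraries and weigh the libraries unequally. Sample weights were 1.19, 0.626 and 0.597 for wild-type replicates 1, 2 and 3 at 0.5 h, and 1.97, 0.353 and 0.611 for the mutant ones. The widths therefore lean on mutant replicate 1 and on other times.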

How the data were processed

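Explant RNA (Qiagen RNeasy) went into Kapa stranded mRNA libraries, per the labels' protocols. The submitters' processing notes name fastp, STAR and TAIR10. How reads were counted, and with which strand setting, versions and annotation, is not given in the sources used here. What the authors deposited is a table of raw counts with 36635 rows in 30 libraries, not normalized and with no gene identifier. No name was taken from row order. Paralogs, overlapping genes and antisense partners may share reads.

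The main tool was edgeR 4.0.16 (R 4.3.3). filterByExpr with 10 groups (minimum count 10, minimum total 15) left 18526 features with 99.8% of counts. After TMM scaling, all libraries entered 1 robust quasi-likelihood model with 10 groups, 20 residual degrees of freedom and no block. Calls use a Benjamini-Hochberg adjusted p under 0.05, per contrast. Log2 CPM used a prior count of 2, and folds edgeR's default. An SE of a fold is approximate, its size divided by the square root of F. Replicate correlations, chi-square values of replicate pairs at 0.5 h (2.25 to 15.2 per degree of freedom) and totals were checked. Alternatives used DESeq2 1.42.0, limma 3.58.1 (voom with sample weights) and the settings named in the closing section. Floors cover counting error only.

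Given by number were, per direction, the feature with the largest fold and, of the rest, that with the smallest p, among calls reaching 5 CPM in either group with no overlap between the genotypes' libraries. The leading 20 follow the same filter. Members, lists and rules were chosen with earlier results of these data known. Planned gene lists and cell type markers were not tested, because rows carry no identifier.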

Additional observations from a re-analysis of the deposited data

Results flagged for a closer look

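Results are listed here because the genotype difference at 0.5 h departed from that at another time in a direct test (edgeR's quasi-likelihood test, adjusted p under 0.05). Such departures numbered 15 features against 0 h, 33 against 3 h, 320 against 24 h and 8 against the mean of the 4 other times. Feature 10904 was higher in the mutant by 1.77 on the log2 scale at 0.5 h and by 0.15 at 3 h, a departure of 1.62 (adjusted p = 0.00583). At 24 h its fold was -0.43, a departure of 2.20 (adjusted p = 2.41e-05). Its difference at 0.5 h did not pass the test of a departure from that at 0 h (0.12, adjusted p = 0.999), from that at 1 h (0.80, adjusted p = 0.929) or from the mean of the 4 other times (1.18, adjusted p = 0.156). Each genotype contributes 3 libraries per time to these edgeR values.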

How the results depend on the processing

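With each library at 0.5 h left out in turn, calls ran from 157 to 1984, higher ones from 57 to 663 and lower ones from 100 to 1321. At least 2-fold calls ran from 35 to 276 higher and from 71 to 352 lower. Departures from other times, over all 30 libraries left out in turn, ran from 13 to 20 against 0 h, 0 to 2 against 1 h, 10 to 120 against 3 h, 110 to 436 against 24 h and 2 to 15 against the mean of the others. The 6 libraries alone gave 161 calls, 88 higher and 73 lower (78 and 68 at least 2-fold). Without the shallow library, an alternative chosen after seeing the data, the other 5 alone gave 83, 39 higher and 44 lower, each at least 2-fold (39 and 44). Thinning gave 176 calls, 48 higher and 128 lower (32 and 71 at least 2-fold). limma-voom gave 616 lower calls and 3 departures from the mean of the other times. DESeq2 gave 773 calls, and 26, 3, 59, 535 and 15 departures from 0, 1, 3 and 24 h and their mean. Of features that fell in the mutant's own libraries, 1.44% were higher. The cause of these shifts was not tested. DESeq2's size factors, no filter on low counts and leaving out 5 abundant features gave 679, 569 and 682 calls. No named feature changed direction.

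Same-numbered libraries at 0.5 h deviated together at r = 0.000412, 0.299 and 0.349 for replicates 1, 2 and 3, and 2 of 3 wild-type libraries correlated best with their own number. The r of replicate 1 includes the shallow wild-type library, so it cannot speak against pairing. At the other times, which hold no shallow library, r was -0.177 to 0.0742 at 0, 1 and 24 h and 0.0445, 0.214 and 0.18 at 3 h. There 0, 1, 3 and 2 wild-type libraries correlated best with their own number at 0, 1, 3 and 24 h. Whether the numbers pair the libraries was not settled. The main model has no block, so any effect shared by same-numbered libraries stays in its spread. With replicate number as a block, the fit of all libraries gave 723 calls, 305 higher and 418 lower, and the 6 libraries alone 1426, 666 higher and 760 lower (197 at least 2-fold higher).

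The shallow library limits precision at low levels, where 1 to 3 counts decide a value.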
